A study of Mus musculus with 13 samples.

Results

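The axon guidance ligands and receptors described here were the genes of the deposited count table whose symbols place them among the semaphorins of classes 3 to 7, their plexin and neuropilin receptors, the ephrins and Eph receptors, the Slits and Robos, and the netrins and netrin-G proteins with the receptors Dcc and Unc5. They were chosen by symbol and not by any measured value, although earlier results of these data were known at the time. The rule found 55 genes of the 12009 in the table, 29 of them ligands and 26 receptors. Several of the ligands, such as the transmembrane semaphorins and the ephrins, can also signal into the cell that carries them.

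The measurements were made by translating ribosome affinity purification (TRAP), in which ribosomes that carry a tagged protein are pulled out of a homogenate together with the mRNA they hold. All mice carried the *Slc6a2*-*eGFP*/*Rpl10a* transgene, a bacterial artificial chromosome in which the promoter of *Slc6a2*, the norepinephrine transporter gene, drives an EGFP-tagged ribosomal protein in noradrenergic neurons, on a C57BL/6 background. Mice of 6 to 8 months received DSP-4, a toxin of noradrenergic neurons that damages their axons before their cell bodies, as 2 injections of 50 mg/kg on days 1 and 7, or saline, and tissue was taken on day 14. Each library came from 2 mice of 1 sex whose hindbrains, without cerebellum, were homogenized together, and input is the RNA of that whole homogenate, from neurons and glia of every kind. The groups were DSP-4 TRAP (6 libraries), saline TRAP (3), DSP-4 input (2) and saline input (2), and the authors had removed 2 saline samples in which TRAP did not raise *Slc6a2* above 10-fold. The replicate numbers printed are those of the labels.

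Axon guidance molecules steer growing axons by attraction or repulsion. Semaphorins act through plexins, with neuropilins as co-receptors for most of the secreted class 3, Slits repel through Robo receptors, netrins attract through Dcc and repel through Unc5 receptors, and ephrins and Eph receptors signal between touching cells in both directions. In the adult brain many of these genes remain expressed, with roles in synapses, dendrites and the response of axons to injury. In a pulldown from noradrenergic neurons, a value above input means that the mRNA made up a larger share of the tagged-ribosome RNA than of the hindbrain as a whole.

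The 13 libraries held 17491357 to 29199550 counts over the listed genes, and levels are given as CPM, counts scaled to a common library size with TMM factors. The lowest count of any of the 55 genes in a library was 20. *Slc6a2* was at 118 to 128 CPM in saline TRAP, 27.7 to 73.8 CPM in DSP-4 TRAP and 1.83 to 5.06 CPM in input. DSP-4 TRAP replicates 2 and 3 stood apart, since 20 and 22 genes had no count there, while each other library had 0 to 6 such genes. All 8 noradrenergic markers measured were higher in TRAP than in input (edgeR, FDR under 0.1). Among markers of other cells, 3 of 4 GABAergic and 2 of 3 serotonergic markers were higher and 0 lower, 5 of 8 astrocyte markers were higher and 2 lower, 2 of 9 oligodendrocyte markers were higher and 4 lower, and 0 of 9 microglial markers were higher and 3 lower. Of the 2 glutamatergic markers measured, 1 was higher and 1 lower. Over all genes, 31.1% were higher and 29% lower, so small counts near these shares do not set a cell type apart. The summed level of the noradrenergic markers was 472 to 949.8 CPM in TRAP and 160.4 to 216 CPM in input, that of the GABAergic markers 780.3 to 1356 and 479 to 591 CPM, and that of the glutamatergic markers 279 to 423 and 167 to 222.5 CPM. The serotonergic markers summed to 94.0 to 177 CPM in TRAP and 71.5 to 89.1 CPM in input, and the astrocyte markers to 3793 to 4951 and 3446 to 3755 CPM. In these 5 sets every TRAP library was above every input library, as in 18 of the 55 guidance genes described next. Their part in those results was not tested. In bulk RNA, fewer cells of a type and less RNA per cell cannot be told apart.

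Within the TRAP libraries, levels were compared between genes per kilobase of exonic length, as CPM per kb averaged over the saline and DSP-4 groups. *Sema7a*, a membrane-anchored semaphorin that acts through integrins and plexin C1, was the most abundant at 22 CPM per kb, followed by *Efnb3*, a transmembrane ephrin, at 18.5. *Sema6d* and *Sema6b*, transmembrane ligands of class A plexins, were at 8.36 and 7.23 CPM per kb, and the receptor *Ephb1* was at 6.6. The 5 lowest were the receptor *Ephb2* at 0.651 CPM per kb, the secreted semaphorins *Sema3d* and *Sema3a* at 0.761 and 0.762, the netrin *Ntn3* at 0.841 and the co-receptor *Nrp2* at 0.857. Of the 5 most abundant genes, *Sema6d* was higher in TRAP than in input, *Efnb3* and *Sema6b* were lower, and *Sema7a* and *Ephb1* did not pass the test described next. *Sema7a* ran from 55.6 to 94.6 CPM in TRAP and 61.4 to 110.4 CPM in input, overlapping ranges with a log2 fold change of −0.28 (95% interval −0.64 to 0.08, FDR = 0.182 from edgeR). With an offset for GC content and length, described further on, its direction turned and it was called higher (log2 fold change 0.37, FDR = 0.0790), and without saline input replicate 5 it was called lower.

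The first comparison asked which guidance genes had a larger or smaller share in TRAP than in input, over the mean of both treatments. Of the 55 genes, 33 passed an FDR under 0.1 in edgeR's quasi-likelihood test, 25 of them higher in TRAP and 8 lower, and 22 missed it. Over all 12009 genes, 60.1% passed, 31.1% higher and 29% lower. The median log2 fold change was 0.42 over the 55 genes and −0.01 over all genes. Receptors were called higher in 14 of 26 cases and lower in 2, with a median of 0.65, and ligands in 11 and 6 of 29 cases, with a median of 0.05. By family, the genes called higher included 4 of 6 class 3 semaphorins, both neuropilins, 3 of 8 plexins, both Slits, both Robo receptors, 3 of 5 netrin receptors and 4 of 5 EphA receptors, against 0 of 5 class 4 semaphorins, 0 of 4 ephrin-A ligands, 0 of 4 EphB receptors and 0 of 2 netrins. In 18 of the 55 genes every TRAP library was above every input library, where 18.2% of all genes had that order, and in 3, *Efna3*, *Efnb3* and *Sema4d*, every TRAP library was below, where 15.9% did. With the replicate number as a block, which pairs TRAP and input of the same number, the calls were 24 higher and 4 lower. Only DSP-4 numbers 2 and 7 and saline number 12 had both, so the block rested on these pairs and not on all libraries. With a term for each replicate number, almost nothing was left to estimate a gene's own spread, which was drawn from all genes. FDR values with the block thus do not measure replication of a single gene.

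**Figure D1:**
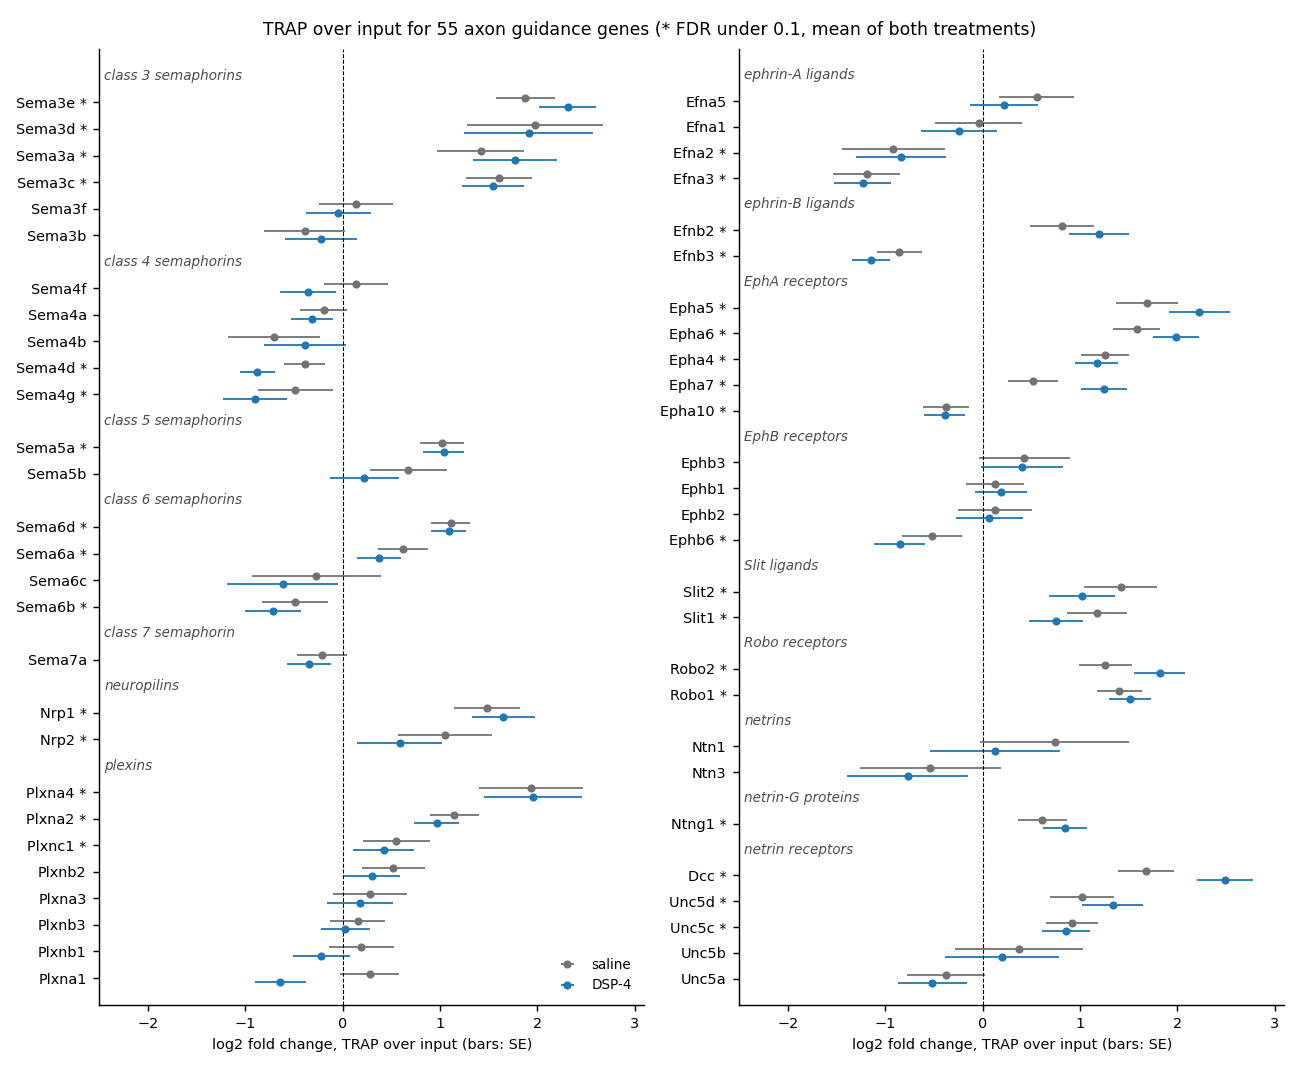
Log2 fold change of TRAP over input (x axis, bars are SE) for each of the 55 genes, grouped by family, in saline (grey, 3 TRAP and 2 input libraries) and DSP-4 (blue, 6 and 2 libraries), with a star at genes that pass an FDR under 0.1 for the mean of both treatments. For the mean of both treatments *Sema3e* (2.09) and *Dcc* (2.08) lie furthest to the right and *Efna3* (−1.21) and *Efnb3* (−1.0) furthest to the left.

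Among the ligands, the class 3 semaphorins, secreted cues that repel many axons, fell into a group that was higher in TRAP and a group that did not pass. *Sema3e* was at 29.7, 25.9 and 28.5 CPM in saline TRAP replicates 4, 6 and 12 and at 13.6 to 31.6 CPM (median 26.5) in the 6 DSP-4 TRAP libraries, against 8.08 and 7.18 CPM in saline input and 5.37 and 4.7 CPM in DSP-4 input. Every TRAP library was above every input library, although DSP-4 TRAP replicate 2 was far below the other TRAP libraries, and the gene had a log2 fold change of 2.09 (FDR = 1.43e-06 and SE 0.21, edgeR). *Sema3e* is a ligand of plexin D1 and can act without a neuropilin. *Sema3c* was at 21.9, 18.1 and 18.2 CPM in saline TRAP replicates 4, 6 and 12 and at 8.54 to 21 CPM (median 16.7) in the 6 DSP-4 TRAP libraries, against 7.54 and 5.15 CPM in saline input and 5.62 and 5.4 CPM in DSP-4 input. The ranges did not overlap, with a log2 fold change of 1.57 (FDR = 4.37e-05, SE 0.23). *Sema3d* had 1.48 to 8.81 CPM in TRAP and 1.17 to 2.1 CPM in input, and *Sema3a*, the founding collapsin, had 4.84 to 14.1 CPM in TRAP and 2.44 to 5.18 CPM in input. Both overlapped input, *Sema3d* through DSP-4 TRAP replicates 1 and 3 and *Sema3a* through replicate 2, and both were higher in TRAP, with log2 fold changes of 1.94 and 1.59 (FDR = 0.00313 and 4.79e-04). *Sema3f*, a ligand of neuropilin-2, had 8.37 to 26.5 CPM in TRAP and 8.99 to 16.1 CPM in input, and *Sema3b* had 3.71 to 16.5 CPM in TRAP and 6.86 to 13.7 CPM in input. Both overlapped input, and their log2 fold changes of 0.05 and −0.31 did not pass (FDR = 0.888 and 0.368). These groups also differed in the GC content of the longest transcript. It was 39.2% for *Sema3d*, 40.8% for *Sema3a*, 42.0% for *Sema3e* and 42.7% for *Sema3c*, against 56.5% for *Sema3b* and 58.4% for *Sema3f*. With an offset for GC content and length, described further on, *Sema3a* lost its call (FDR = 0.108, edgeR) and *Sema3f* was called higher (FDR = 0.0465).

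The 4 class 3 semaphorins called higher lie on chromosome 5 of GRCm38, within 5.35 Mb between 12383385 and 17730268, all on the plus strand, in the GENCODE vM21 annotation. The 2 other genes of the table in that span lie between *Sema3e* and *Sema3c*. They are *Pclo*, which encodes a scaffold of the presynaptic active zone, and *Cacna2d1*, a calcium channel subunit, and both were called higher in TRAP, as were 31.1% of all genes, with log2 fold changes of 1.29 and 1.598. To show what kind of start sites these genes have, the bases from 250 before to 50 after an annotated start are printed for *Sema3d*, *Sema3e* and *Sema3c* and for *Efna2* and *Ephb6*, called lower, from RefSeq on GRCm38.p6, 5′ to 3′ on the gene's strand with CG dinucleotides in capitals. The *Sema3a* entry is a start far inside the annotated gene and is not shown. The *Sema3c* window also lies inside its annotated gene, which begins at 17574281.
Sema3d, chr5:12382916-12383215, plus strand: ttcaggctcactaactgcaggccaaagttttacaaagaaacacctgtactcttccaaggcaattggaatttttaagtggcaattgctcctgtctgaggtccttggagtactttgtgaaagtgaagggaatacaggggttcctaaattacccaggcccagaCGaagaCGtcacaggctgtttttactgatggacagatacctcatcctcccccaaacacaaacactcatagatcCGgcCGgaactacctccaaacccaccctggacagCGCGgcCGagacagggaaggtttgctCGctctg
Sema3e, chr5:14025026-14025325, plus strand: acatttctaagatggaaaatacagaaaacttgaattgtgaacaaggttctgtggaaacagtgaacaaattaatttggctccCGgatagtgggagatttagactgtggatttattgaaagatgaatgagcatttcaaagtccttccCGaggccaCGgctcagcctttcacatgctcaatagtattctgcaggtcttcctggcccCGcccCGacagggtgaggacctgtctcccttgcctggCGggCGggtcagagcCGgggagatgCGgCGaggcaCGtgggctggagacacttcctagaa
Sema3c, chr5:17574566-17574865, plus strand: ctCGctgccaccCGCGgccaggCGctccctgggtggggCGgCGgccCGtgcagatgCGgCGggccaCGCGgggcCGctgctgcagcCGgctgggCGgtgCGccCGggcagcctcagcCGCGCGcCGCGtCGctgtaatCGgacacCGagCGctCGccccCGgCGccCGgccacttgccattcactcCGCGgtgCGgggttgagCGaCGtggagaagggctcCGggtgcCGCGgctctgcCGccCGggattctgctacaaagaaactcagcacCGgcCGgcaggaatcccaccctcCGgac
Efna2, chr10:80179232-80179531, plus strand: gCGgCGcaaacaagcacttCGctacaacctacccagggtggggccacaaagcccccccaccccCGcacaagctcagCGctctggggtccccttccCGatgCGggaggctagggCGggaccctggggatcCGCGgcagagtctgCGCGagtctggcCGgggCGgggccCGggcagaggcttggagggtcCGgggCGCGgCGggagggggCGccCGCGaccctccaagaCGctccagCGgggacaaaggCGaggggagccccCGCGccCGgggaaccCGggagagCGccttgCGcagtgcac
Ephb6, chr6:41605261-41605560, plus strand: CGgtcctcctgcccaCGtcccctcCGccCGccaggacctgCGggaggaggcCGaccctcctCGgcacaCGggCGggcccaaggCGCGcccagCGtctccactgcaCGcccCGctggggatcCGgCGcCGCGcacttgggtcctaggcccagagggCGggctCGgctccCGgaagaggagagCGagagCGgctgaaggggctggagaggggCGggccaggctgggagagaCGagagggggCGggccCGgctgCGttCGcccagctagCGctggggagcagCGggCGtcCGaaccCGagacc

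The *Sema3d* and *Sema3e* starts held 8 and 11 CG dinucleotides, and the *Sema3c* start held 42, above the 31 of *Efna2* and the 34 of *Ephb6*. Starts were found for 45 of the 55 genes. As the mean over the starts of a gene, their median was 23 CG dinucleotides, against 21 over the 9155 genes of the table with a start, and it was 23.5 for the 20 with a start that were called higher and 28 for the 7 called lower.

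The membrane-bound semaphorins moved in both directions. *Sema6d* was at 85.8, 99.2 and 81.8 CPM in saline TRAP replicates 4, 6 and 12 and at 70.2 to 106 CPM (median 87.5) in the 6 DSP-4 TRAP libraries, against 43.1 and 39.4 CPM in saline input and 46 and 36.4 CPM in DSP-4 input. These ranges were well apart, and the gene had a log2 fold change of 1.10 (FDR = 7.97e-06 and SE 0.13, edgeR). *Sema5a* was at 31.2, 28 and 39.6 CPM in saline TRAP replicates 4, 6 and 12 and at 24.9 to 38.3 CPM (median 31.7) in the 6 DSP-4 TRAP libraries, against 16.5 and 16 CPM in saline input and 15.3 and 15.6 CPM in DSP-4 input. *Sema5a*, a transmembrane protein with thrombospondin repeats that both attracts and repels axons, was higher in TRAP in every library, with a log2 fold change of 1.03 (FDR = 4.94e-05, SE 0.15). *Sema6a* was also higher, with 19.9 to 38.3 CPM in TRAP and 15.6 to 24.2 CPM in input and a log2 fold change of 0.50 (FDR = 0.0240), but its ranges overlapped and its FDR was 0.131 with the replicate number as a block. Lower in TRAP were *Sema4d*, *Sema4g* and *Sema6b*. *Sema4d* was at 42.6, 39.997 and 32.9 CPM in saline TRAP replicates 4, 6 and 12 and at 27.1 to 40.5 CPM (median 29.3) in the 6 DSP-4 TRAP libraries, against 49.8 and 51 CPM in saline input and 61.5 and 54 CPM in DSP-4 input. All TRAP libraries of *Sema4d*, a ligand of plexin B1 that oligodendrocytes also express, were below all input libraries, with a log2 fold change of −0.63 (FDR = 0.00126 and SE 0.14, edgeR). *Sema6b* had 18.9 to 56.3 CPM in TRAP and 25.9 to 59.6 CPM in input and a log2 fold change of −0.60 (FDR = 0.0323, SE 0.22), and *Sema4g* had 7.06 to 17.8 CPM in TRAP and 11.8 to 20.7 CPM in input and a log2 fold change of −0.69 (FDR = 0.0318, SE 0.26). In both of these TRAP and input overlapped, and with the block their FDR was 0.155 and 0.126. *Sema4a*, *Sema4b*, *Sema4f*, *Sema5b*, *Sema6c* and *Sema7a* did not pass, with log2 fold changes of −0.55 to 0.45.

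Of the ephrins, which are bound to the cell surface by a lipid anchor (ephrin-A) or a transmembrane segment (ephrin-B), 1 was higher and 3 were lower. *Efnb3* was at 61.4, 51.7 and 51.6 CPM in saline TRAP replicates 4, 6 and 12 and at 50.1 to 81.3 CPM (median 60.5) in the 6 DSP-4 TRAP libraries, against 84.1 and 114 CPM in saline input and 151 and 128 CPM in DSP-4 input. Input was above TRAP in every library, and the gene had a log2 fold change of −1.0 (FDR = 5.31e-05 and SE 0.15, edgeR). *Efna3* was at 12.1, 10.2 and 15.5 CPM in saline TRAP replicates 4, 6 and 12 and at 9.08 to 22.7 CPM (median 17.4) in the 6 DSP-4 TRAP libraries, against 23.3 and 34.3 CPM in saline input and 41.7 and 36.5 CPM in DSP-4 input. *Efna3* was likewise lower in every TRAP library, with a log2 fold change of −1.21 (FDR = 3.73e-04, SE 0.23). A long noncoding gene covers 14.1% of the exonic bases of *Efna3*, and reads from it could have been counted there. *Efna2* had 1.72 to 8.37 CPM in TRAP and 7.01 to 9.84 CPM in input, overlapping ranges, with a log2 fold change of −0.88 (FDR = 0.0469, SE 0.35) and an FDR of 0.239 with the block. *Efnb2*, a ligand of EphB receptors and EphA4, went the other way, with 10.2 to 21 CPM in TRAP and 5.52 to 9.64 CPM in input, no overlap and a log2 fold change of 1.0 (FDR = 0.00155). *Efna1* and *Efna5* did not pass, with log2 fold changes of −0.14 and 0.39.

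Both Slits that were measured, the secreted ligands of the Robo receptors, were higher in TRAP. *Slit1* had 20.2 to 42.3 CPM in TRAP and 11.1 to 17.3 CPM in input, and *Slit2* had 11.6 to 30.9 CPM in TRAP and 8.32 to 11.4 CPM in input. Neither overlapped input, and the log2 fold changes were 0.96 and 1.22 (FDR = 0.00107 and 8.13e-04 from edgeR). *Ntng1*, a lipid-anchored relative of the netrins that binds a synaptic partner in place of Dcc, had 36.5 to 66.3 CPM in TRAP and 28.8 to 32.6 CPM in input, again without overlap, and a log2 fold change of 0.73 (FDR = 0.00189). The secreted netrins were among the most variable of the 55 genes. *Ntn1* was at 1.31 to 16.1 CPM and *Ntn3* at 0.981 to 10.02 CPM in TRAP, and log2 fold changes of 0.43 and −0.65 did not pass, with SE of 0.51 and 0.48.

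Among the receptors, the neuropilins were both higher in TRAP. *Nrp1*, which binds *Sema3a*, had 14.4 to 39.3 CPM in TRAP and 8.08 to 10.2 CPM in input with no overlap and a log2 fold change of 1.56 (FDR = 4.95e-05 from edgeR), and *Nrp2*, which binds *Sema3f*, had 5.05 to 17.3 CPM in TRAP and 4.76 to 6.72 CPM in input with overlap and a log2 fold change of 0.82 (FDR = 0.0451). Of the plexins, the signalling receptors of the semaphorins, *Plxna4*, *Plxna2* and *Plxnc1* were higher and the other 5 did not pass. *Plxna4*, a partner of neuropilin-1 in the response to Sema3a, had 17.2 to 82 CPM in TRAP and 8.0 to 11.8 CPM in input and a log2 fold change of 1.94 (FDR = 3.84e-04). Its spread was wide, with 17.2, 38.9 and 56.8 CPM in saline TRAP replicates 4, 6 and 12, yet the lowest of these was above every input library. *Plxna2* had 18.4 to 33.3 CPM in TRAP and 11.6 to 13.5 CPM in input (log2 fold change 1.06, FDR = 1.02e-04). *Plxnc1*, the receptor of Sema7a, had 11 to 28.3 CPM in TRAP and 12.6 to 14.6 CPM in input, overlapping ranges, and was nearest the threshold of the genes called higher, with a log2 fold change of 0.48 (FDR = 0.0907). It no longer passed in 13 of 24 alternative settings. *Plxna1*, *Plxna3*, *Plxnb1*, *Plxnb2* and *Plxnb3* had log2 fold changes of −0.18 to 0.41.

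The Eph receptors, tyrosine kinases activated by ephrins, were called in both directions. *Epha6* was at 23.1, 34.6 and 30.3 CPM in saline TRAP replicates 4, 6 and 12 and at 23.9 to 37.6 CPM (median 29.6) in the 6 DSP-4 TRAP libraries, against 9.72 and 9.87 CPM in saline input and 8.01 and 7.19 CPM in DSP-4 input. *Epha5* was at 26.5, 24.4 and 36.3 CPM in saline TRAP replicates 4, 6 and 12 and at 17 to 32.8 CPM (median 25) in the 6 DSP-4 TRAP libraries, against 9.83 and 8.22 CPM in saline input and 6.73 and 3.85 CPM in DSP-4 input. *Epha4* was at 44.1, 38.9 and 66.8 CPM in saline TRAP replicates 4, 6 and 12 and at 36.2 to 52.5 CPM (median 48.2) in the 6 DSP-4 TRAP libraries, against 18.8 and 23.1 CPM in saline input and 19.9 and 22 CPM in DSP-4 input. In all of these genes TRAP was above input in every library, and for *Epha4* DSP-4 TRAP replicate 2 was the lowest. *Epha6* had the smallest FDR of the 55 genes, with a log2 fold change of 1.78 (FDR = 8.94e-07 and SE 0.17, edgeR). *Epha5* and *Epha4* had log2 fold changes of 1.96 (SE 0.22, FDR = 4.15e-06) and 1.21 (SE 0.17, FDR = 2.20e-05). *Epha4* is an Eph receptor that binds ephrins of both classes. *Epha7*, with 15.3 to 32.1 CPM in TRAP and 10.7 to 15 CPM in input, was also higher (log2 fold change 0.88, FDR = 5.45e-04). *Epha10*, an Eph receptor without kinase activity, was lower in TRAP, with 10.6 to 18.7 CPM in TRAP and 18.1 to 21.8 CPM in input, overlapping ranges and a log2 fold change of −0.38 (FDR = 0.0531, SE 0.16), and an FDR of 0.560 with the block. Of the EphB receptors none was called higher. *Ephb6*, which also lacks kinase activity, was lower, with 12.8 to 29.4 CPM in TRAP and 24.8 to 37.1 CPM in input, overlapping ranges and a log2 fold change of −0.69 (FDR = 0.00958, SE 0.20). *Ephb1*, *Ephb2* and *Ephb3* did not pass, with log2 fold changes of 0.16, 0.10 and 0.42.

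Of the 7 receptors of Slits and netrins, 5 were higher in TRAP and none was lower. *Robo1* was at 34.8, 41.5 and 48.9 CPM in saline TRAP replicates 4, 6 and 12 and at 34.9 to 51.4 CPM (median 42.3) in the 6 DSP-4 TRAP libraries, against 15.3 and 16.2 CPM in saline input and 17.1 and 12.9 CPM in DSP-4 input. *Robo2* was at 39.8, 35 and 37.3 CPM in saline TRAP replicates 4, 6 and 12 and at 25.2 to 46.8 CPM (median 42.7) in the 6 DSP-4 TRAP libraries, against 16.2 and 15 CPM in saline input and 11.7 and 10.1 CPM in DSP-4 input. Both receptors were above input in every TRAP library, with a log2 fold change of 1.46 (FDR = 2.91e-06 and SE 0.16, edgeR) for *Robo1* and of 1.54 (SE 0.19, FDR = 8.34e-06) for *Robo2*. *Dcc* was at 14.3, 11.2 and 15.9 CPM in saline TRAP replicates 4, 6 and 12 and at 13.2 to 20.9 CPM (median 18.5) in the 6 DSP-4 TRAP libraries, against 4.5 and 4.16 CPM in saline input and 2.98 and 3.38 CPM in DSP-4 input. *Dcc*, the receptor through which netrin-1 attracts axons, was above input throughout, with a log2 fold change of 2.08 (FDR = 1.11e-06, SE 0.20). Of the Unc5 receptors, which convert the response to netrin into repulsion, *Unc5d* and *Unc5c* were higher, with 14.2 to 32.9 CPM in TRAP and 8.27 to 16 CPM in input (log2 fold change 1.18, FDR = 4.39e-04) and 11.9 to 26.9 CPM in TRAP and 10.9 to 13.8 CPM in input (log2 fold change 0.89, FDR = 7.54e-04). In both, TRAP and input overlapped. *Unc5a* and *Unc5b* did not pass, with log2 fold changes of −0.45 and 0.28.

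**Figure D2:**
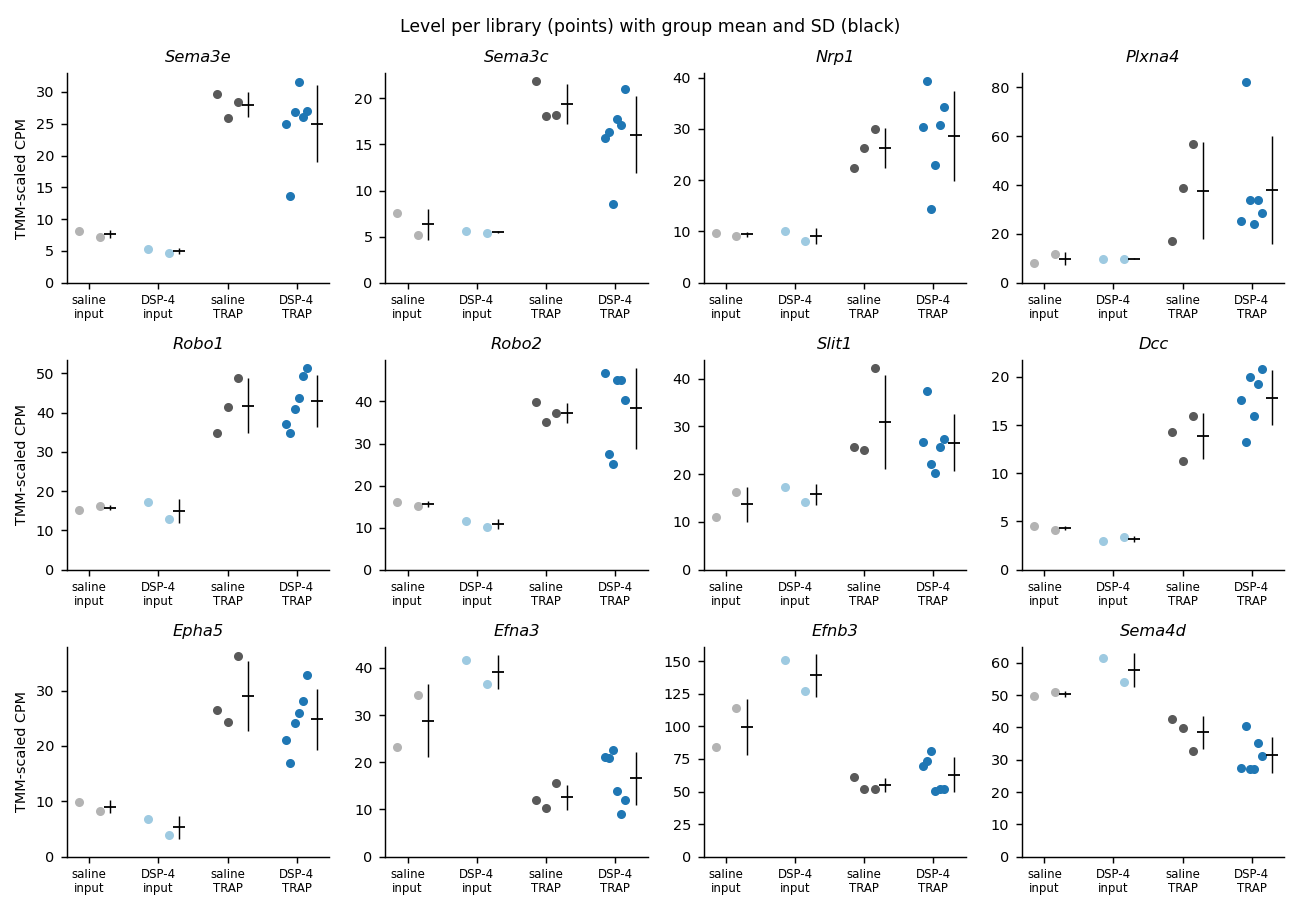
TMM-scaled CPM (y axis, from 0) in each of the 13 libraries for 12 of the guidance genes, by group, with the group mean and SD in black. In the top and middle rows and for *Epha5* all 9 TRAP points lie above the 4 input points, and for *Efna3*, *Efnb3* and *Sema4d* they lie below.

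The same comparison was made within each treatment. In saline, 22 of the 55 genes were higher in TRAP and 2 lower, where 19.5% and 15.7% of all genes were (35.1% together). In DSP-4, 22 were higher and 7 lower, where 27.3% and 23.8% of all genes were (51.1% together). *Efna3* and *Efnb3* were lower in both treatments. *Sema6a* passed in saline and not in DSP-4, and *Epha7*, *Ephb6*, *Sema4d*, *Sema4g*, *Sema6b* and *Plxna1* passed in DSP-4 and not in saline. That difference between the treatments was tested directly and held for 0 of the 55 genes, and for 0% of all genes, at an FDR under 0.1 in edgeR, and for 0 of the 55 in DESeq2 and limma. At an unadjusted p under 0.05 it held for 3 of the 55, *Plxna1*, *Epha7* and *Dcc*, and for 2.67% of all genes. *Plxna1* had a log2 fold change of TRAP over input of 0.28 in saline and −0.64 in DSP-4, *Epha7* of 0.52 and 1.25, and *Dcc* of 1.68 and 2.49. The counts within a treatment rested on few input libraries. With the replicate number as a block, the saline comparison rested on TRAP and input of number 12 alone. Over all 12009 genes, the saline calls went from 4217 to 1422 with that block. They went to 237 with the block and an offset for GC content and length. In saline, 15 genes were called, all higher, without saline input replicate 12, 15 with the replicate number as a block, and 1, *Slit1*, with the block and an offset for GC content and length. In DSP-4, the 7 lower calls became 3 without DSP-4 input replicate 2, 4 without DSP-4 input replicate 7, 4 with the block and 12 without DSP-4 TRAP replicates 2 and 3.

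TRAP over input varied with the base composition and length of the transcripts, in these genes and over the whole table. The GC content of the longest transcript was 39.2% to 58.9% (median 45.6%) in the 25 genes called higher and 53.4% to 63.5% (median 58.1%) in the 8 called lower. Across genes, the Spearman correlation of the log2 fold change with GC content was −0.78 over the 55 genes and −0.52 over 11560 genes, and with exonic length 0.69 and 0.43; these are descriptions, since genes share libraries and are not replicates. When all genes were split into 5 equal classes by GC content, the guidance genes of the lowest class had a median log2 fold change of 1.58 (8 genes), against 0.62 for all genes of that class. The medians were 1.10 (8 genes) against 0.24 in the next class, 1.06 (9 genes) against 0.00 in the middle, 0.10 (5 genes) against −0.23 and −0.28 (25 genes) against −0.50 in the highest. Of the 25 genes called higher, 5 had a GC content above the median of 49.7% over all genes, *Slit1* at 58.9%, *Plxna4* at 51.6%, *Nrp2* at 51.1%, *Efnb2* at 50.4% and *Plxna2* by a margin smaller than the rounding.

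With an offset for each library's trend in GC content and length, 21 of the 55 genes were called higher and 3 lower, where 28.6% and 24.6% of all genes were, and 19 of these 24 were also called without it. The other 5 were called higher with the offset and not in the first comparison, *Sema5b* (log2 fold change 0.99, FDR = 0.00817), *Plxnb2* (0.72, FDR = 0.00728), *Ephb3* (0.79, FDR = 0.0388), *Sema3f* (0.56, FDR = 0.0465) and *Sema7a*. Among the calls lost, *Sema3a* (log2 fold change 0.53, FDR = 0.108), *Sema5a* (0.23, FDR = 0.167), *Slit2* (0.26, FDR = 0.289), *Epha7* (0.05, FDR = 0.831) and *Unc5c* (−0.03, FDR = 0.912) no longer passed. *Efna2*, *Epha10*, *Ephb6*, *Nrp2*, *Ntng1*, *Plxnc1*, *Sema4g*, *Sema6a* and *Sema6b* did not pass under it either, with log2 fold changes of −0.45 to 0.53. With the block added, 15 were higher and 1 lower, where 15.7% and 15.5% of all genes were. *Unc5b* passed there and not without offset and block (log2 fold change 0.90, FDR = 0.0538), and *Plxna2*, *Robo2*, *Efna3* and *Efnb3* were also lost, with FDR of 0.297, 0.343, 0.204 and 0.138. *Dcc*, *Efnb2*, *Epha4*, *Epha5*, *Epha6*, *Nrp1*, *Plxna4*, *Robo1*, *Sema3c*, *Sema3d*, *Sema3e*, *Sema4d*, *Sema6d*, *Slit1* and *Unc5d* passed in the same direction under every alternative run. Whether GC content or length acts in the assay itself was not tested.

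**Figure D3:**
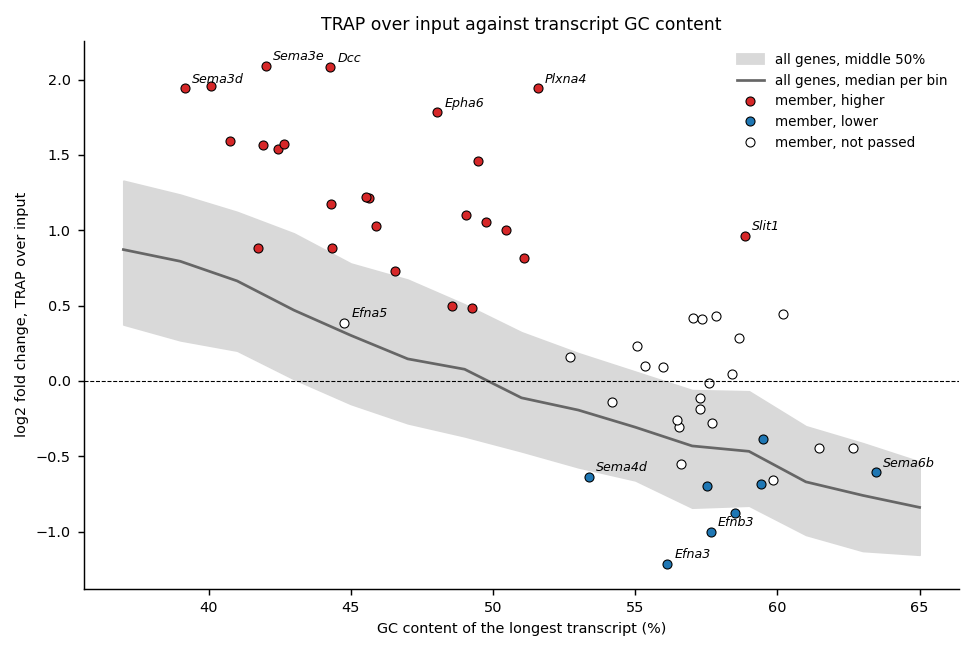
Log2 fold change of TRAP over input (y axis) against the GC content of the longest transcript (x axis, %) for the 55 genes, red where called higher, blue where called lower and white where not passed, over the median (line) and middle 50% (grey) of all genes in bins of GC content. The guidance genes follow the downward trend of all genes, with Spearman correlations of −0.78 and −0.52. Red and blue points were called on the values of the y axis, so their place relative to the grey band is no separate result.

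The second comparison asked whether DSP-4 changed these genes in TRAP. None passed, 0 of 55 at an FDR under 0.1 in edgeR, where 0.025% of all genes passed, and DESeq2 and limma also called 0 of the 55. At an unadjusted p under 0.05 there was 1 of the 55, *Epha7*, against 1.88% of all genes. Log2 fold changes of DSP-4 over saline ran from −0.45 to 0.77, with a median of 0.08 and with 53 of the 55 between −0.5 and 0.5. For 42 genes the 95% interval lay within −1 and 1, so that a change of 2-fold or more was outside it, and for the other 13 it reached further. The summed level of the noradrenergic markers was 805.2 to 949.8 CPM in the 3 saline and 472 to 698 CPM in the 6 DSP-4 TRAP libraries, without overlap. *Slc6a2* is among these markers, and the authors removed 2 saline samples in which TRAP did not raise it above 10-fold. The saline libraries were thus selected on 1 of the summed markers, and the methods name no such removal of DSP-4 samples. The choroid plexus and pituitary markers varied widely, at 488 to 999 and 16.1 to 39.4 CPM in saline TRAP and 68.7 to 2887 and 6.87 to 489.6 CPM in DSP-4 TRAP, and their part in any of these values was not tested.

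The genes with the smallest p in the direction of a rise were *Epha7*, *Sema3b*, *Dcc* and *Sema4b*, and none passed. *Epha7* was at 22, 15.3 and 19 CPM in saline TRAP and 19.2 to 32.1 CPM (median 25.9) in DSP-4 TRAP. The highest saline library was above the lowest DSP-4 library, and the gene had a log2 fold change of 0.45 (95% interval 0.01 to 0.88, SE 0.20, FDR = 0.9998 in edgeR). *Sema3b* was at 5.43, 8.46 and 3.71 CPM in saline TRAP and 6.57 to 16.5 CPM (median 9.34) in DSP-4 TRAP, overlapping groups, with a log2 fold change of 0.77 (95% interval −0.02 to 1.55, SE 0.37, FDR = 0.9998 in edgeR). *Dcc* was at 14.3, 11.2 and 15.9 CPM in saline TRAP and 13.2 to 20.9 CPM (median 18.5) in DSP-4 TRAP, again overlapping, with a log2 fold change of 0.36 (95% interval −0.11 to 0.83, SE 0.22, FDR = 0.9998 in edgeR). *Sema4b*, a transmembrane semaphorin, had a log2 fold change of 0.66 with a 95% interval of −0.25 to 1.57.

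In the direction of a fall, the smallest p-values were those of *Unc5c*, *Sema4d*, *Sema5b* and *Plxna1*, and none passed. *Unc5c* was at 24.7, 24.7 and 26.9 CPM in saline TRAP and 11.9 to 24 CPM (median 20.6) in DSP-4 TRAP. It was the only gene of the 55 with all DSP-4 TRAP libraries below all saline TRAP libraries, an order found in 0.566% of all genes, while 0 of the 55 had the opposite order, found in 0.716%. Its gap was narrow, from 24 to 24.7 CPM, and the gene had a log2 fold change of −0.36 (95% interval −0.82 to 0.10, SE 0.22, FDR = 0.9998 in edgeR). *Sema4d* was at 42.6, 39.997 and 32.9 CPM in saline TRAP and 27.1 to 40.5 CPM (median 29.3) in DSP-4 TRAP, overlapping, with a log2 fold change of −0.30 (95% interval −0.69 to 0.09, SE 0.18, FDR = 0.9998 in edgeR). *Sema5b* and *Plxna1* had log2 fold changes of −0.45 and −0.30, with 95% intervals of −1.08 to 0.18 and −0.83 to 0.24.

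**Figure D4:**
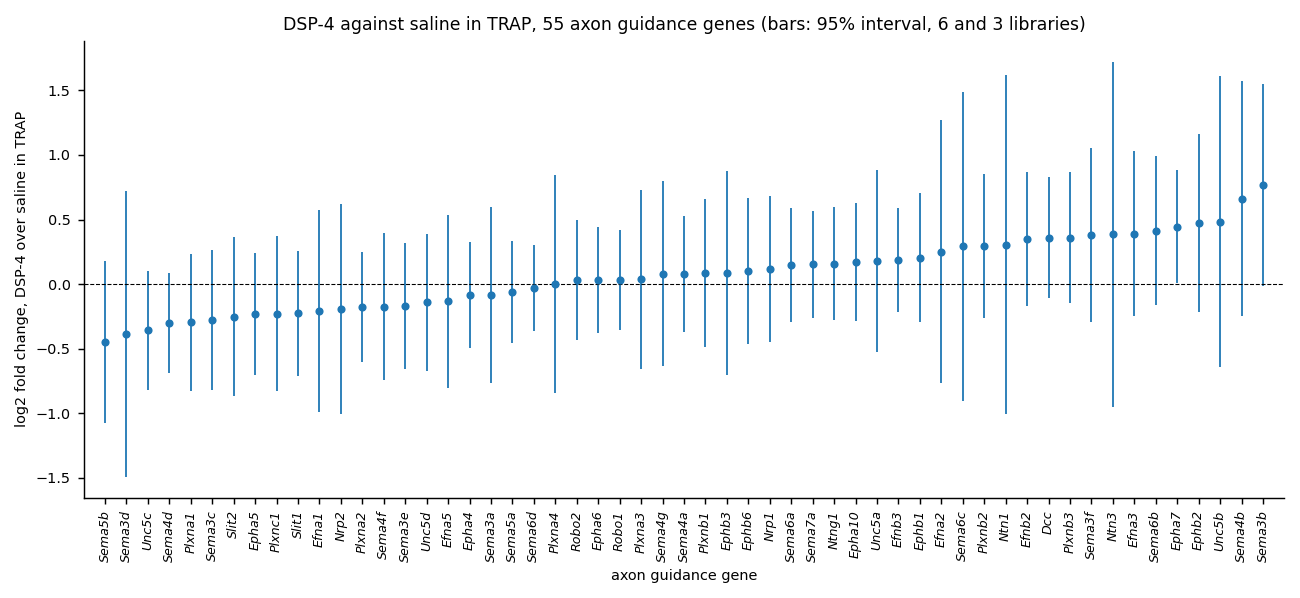
Log2 fold change of DSP-4 over saline in TRAP (y axis) for each of the 55 genes, ordered by value, with 95% intervals from edgeR (6 and 3 libraries). All but 1 interval include 0, that of *Epha7* from 0.01 to 0.88, and the points run from −0.45 to 0.77.

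The median log2 fold change of DSP-4 over saline in TRAP was 0.08 over the 29 ligands and 0.06 over the 26 receptors. In input, DSP-4 was compared with saline over 2 libraries each, and 0 of 55 genes passed in edgeR (0% of all genes) or in DESeq2 and limma, with 1 at an unadjusted p under 0.05 against 2.55% of all genes. That gene was *Epha5*, at 9.83 and 8.22 CPM in saline input and 6.73 and 3.85 CPM in DSP-4 input, with a log2 fold change of −0.77 (95% interval −1.49 to −0.05). In TRAP the same gene had a log2 fold change of −0.23 (95% interval −0.71 to 0.24).

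DSP-4 TRAP replicate 2 was the highest of the 6 DSP-4 TRAP libraries in 20 of the 55 genes and the lowest in 12. Over all genes it was the highest in 29.5% and the lowest in 28.1%. For *Plxna4*, *Ephb1* and *Unc5a* it was far above the other 5, at 82, 82.9 and 27.1 CPM, and for *Sema3e*, *Unc5c* and *Epha4* far below, at 13.6, 11.9 and 36.2 CPM. The same library held 12147 CPM of the 9 oligodendrocyte markers together, against 6181 to 7889.99 CPM in the other DSP-4 TRAP libraries, and the part of these cells in the values was not tested. Without replicates 2 and 3, DSP-4 against saline in TRAP still called 0 of the 55 genes. TRAP against input then called 26 higher and 12 lower, and 4074 and 4179 of all 12009 genes. Without replicate 2 alone it called 26 higher and 11 lower, and 3938 and 3909 of all genes.

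**Figure D5:**
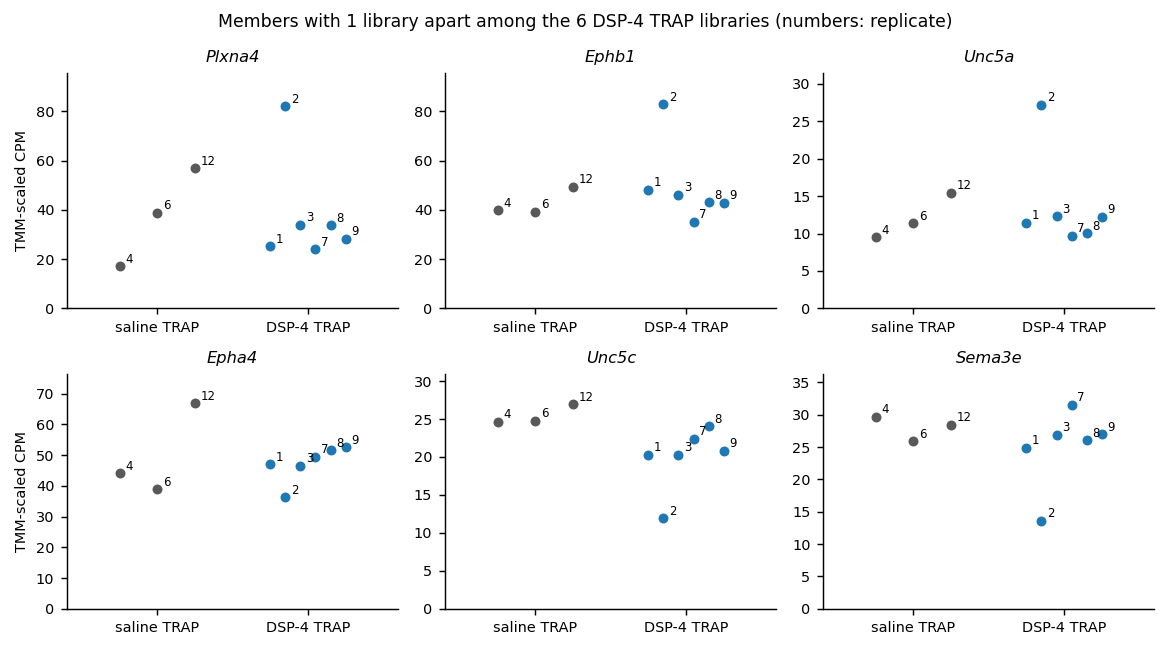
TMM-scaled CPM (y axis, from 0) in each TRAP library, with replicate numbers, for the 6 guidance genes in which 1 DSP-4 TRAP library stands apart from the other 5. In each of them that library is replicate 2, above the others in the top row and below them in the bottom row.

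Guidance cues and receptors of other families, in a list of 40 genes of which 36 were measured, were higher in TRAP in 22 cases and lower in 7, where 31.1% and 29% of all genes were, with a median log2 fold change of 0.51. The smallest p-values in the direction of a rise were those of the contactin *Cntn1* (334 to 449 CPM in TRAP and 108 to 178 CPM in input, log2 fold change 1.48, FDR = 6.68e-07), the receptor phosphatase *Ptprd* (104 to 156 CPM in TRAP and 38.9 to 58.8 CPM in input, log2 fold change 1.55, FDR = 7.01e-07), the cell adhesion molecule *Nrcam* (163 to 206 CPM in TRAP and 63.5 to 90.1 CPM in input, log2 fold change 1.30, FDR = 8.11e-07) and *Fzd3*, a frizzled receptor needed for axon tracts (33.9 to 52.5 CPM in TRAP and 11.5 to 17.1 CPM in input, log2 fold change 1.57, FDR = 1.13e-06). In the direction of a fall they were *Celsr3*, a cadherin that acts with *Fzd3* in planar polarity (2.76 to 7.31 CPM in TRAP and 10.1 to 17.9 CPM in input, log2 fold change −1.73, FDR = 4.21e-05), the synaptic adhesion protein *Lrrc4b* (39.9 to 67.4 CPM in TRAP and 72.9 to 149 CPM in input, log2 fold change −0.95, FDR = 2.60e-04), the Nogo receptor *Rtn4r* (4.33 to 14.8 CPM in TRAP and 12 to 16.4 CPM in input, log2 fold change −0.80, FDR = 0.0177) and the Wnt receptor *Ryk* (18.2 to 38.3 CPM in TRAP and 30.9 to 39.99 CPM in input, log2 fold change −0.59, FDR = 0.0220). *Cntn1*, *Ptprd*, *Nrcam* and *Fzd3* were thus above input in every TRAP library, while *Rtn4r* overlapped input through DSP-4 TRAP replicate 2 and *Ryk* through replicates 2 and 3. DSP-4 against saline in TRAP called 0 of the 36.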

How the data were processed

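RNA was sequenced from 9 TRAP and 4 input libraries. For the deposited raw counts of 12009 genes, which their label calls normalized, the authors used STAR with mm10 and featureCounts, with versions, annotation and strand setting not given in the sources used here. Every gene had a mean count of at least 78.4, so genes of low count were not in the table. Identifiers that are plain numbers (21) stayed in library sizes and tests.

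After TMM scaling, the quasi-likelihood test of edgeR 4.0.16 was run in R 4.3.3 (limma 3.58.1 and DESeq2 1.42.0 as alternatives), two-sided, with Benjamini-Hochberg adjustment (FDR) over 12009 genes and a threshold of 0.1. Libraries were grouped by the labels. TRAP was compared with input over all 13 libraries, which shared 1 estimate of the spread, and DSP-4 with saline over the 9 TRAP libraries. CPM are linear TMM-scaled values, and 95% intervals are unadjusted. The edgeR log2 fold changes used its default prior count. A prior count of 1 entered only log2 CPM values, for limma, the GC and length trends and the pairing correlations. No pool of mice gave more than 1 TRAP library. Scripts were tested on simulated data.

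By the methods each homogenate gave both TRAP and input, and samples with the same number in their labels were taken to come from 1 homogenate. Paired deviations from group means had correlations of 0.181, 0.266 and 0.295 for DSP-4 numbers 2 and 7 and saline number 12. The unpaired saline TRAP 4 and input 5 reached 0.382, so the values alone do not show a pairing. The methods leave 4 saline samples, while the labels give 3 saline TRAP libraries.

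Positions, exonic lengths and GC content are from GENCODE vM21 on GRCm38, which matched all 55 genes and 11560 of the table. Promoters are from RefSeq. The genes and lists were chosen with earlier results of these data known. Full statistics were given for up to 10 genes per direction by smallest p, or for the 4 with the smallest p where fewer than 4 passed, and levels for the 5 highest and 5 lowest per kb. Alternatives covered the scaling, the filter on low counts, DESeq2, limma, a GC and length offset, the replicate block, all 13 libraries in the fit, and each library left out.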

Additional observations from a re-analysis of the deposited data

Results flagged for a closer look

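In 6 of the 55 genes, 1 of the 6 DSP-4 TRAP libraries lay further from the rest than Dixon's 95% criterion allows, and in each it was replicate 2. *Plxna4* was highest there, at 82.0 CPM against 24.0 to 33.9 in the other 5 libraries, *Ephb1* at 82.9 against 35.2 to 48.1, and *Unc5a* at 27.1 against 9.72 to 12.3. *Epha4* was lowest there, at 36.2 CPM against 46.5 to 52.5, *Sema3e* at 13.6 against 24.9 to 31.6, and *Unc5c* at 11.9 against 20.3 to 24.0. Chance flags about 1 in 20 groups. Over all genes 10.9% were flagged, 66.6% of them through replicate 2, and over the guidance genes 10.9%, so the share among them was that of the table.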

How the results depend on the processing

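Of the 55 genes, TRAP against input over both treatments called 33, and 28 to 37 with a library left out (lower calls 4 to 11, the least without saline input replicate 12). An offset for GC content and length gave 24, the fixed replicate block 28, a random block 34, the block with the offset 16, and leaving out DSP-4 TRAP replicates 2 and 3 gave 38. In saline, 24 became 13 with the offset, 15 with the fixed block, 26 with the random block, 1 with block and offset, and 15 to 25 with a library left out (15 without saline input replicate 12). In DSP-4, 29 became 19 with the offset, 24 with the fixed block, 30 with the random block, 10 with block and offset, and 23 to 32 with a library left out. Lower calls in DSP-4, 7 in all, were 3 without DSP-4 input replicate 2, 4 without DSP-4 input replicate 7 and 12 without DSP-4 TRAP replicates 2 and 3. Of all 12009 genes, 7219 were called over both treatments. That became 6393 with the offset, 5202 with the fixed block, 3743 with block and offset, and 8253 without DSP-4 TRAP replicates 2 and 3. With the offset, the fixed block and both, 4217 calls in saline became 3338, 1422 and 237. In DSP-4, 6135 became 5008, 4179 and 2850. Fewer libraries and more model terms leave less to estimate the spread, and the cause of the other shifts was not tested.

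Of the 33 called genes, directions turned, with no call, for *Epha10* (0.0816 with the offset, 0.16 with block and offset), *Ephb6* (0.0321 with the offset), *Sema6b* (0.31 and 0.40), *Unc5c* (−0.0265 and −0.24) and *Efna2* (0.0838 with block and offset). Of the values of these 33 genes under the alternatives, 727 kept direction and call, 53 lost the call and 8 turned. Of 517 values of the 22 genes not called, 462 kept direction without a call, 22 gained a call, 32 turned without a call and 1, *Sema7a* with the offset, turned with one. DSP-4 against saline in TRAP and in input, and the difference of the enrichments, called 0 of 55 under every alternative run, and 0 to 0 with a library left out. With the fixed block, lower calls went from 8 to 4 over both treatments, from 2 to 0 in saline and from 7 to 4 in DSP-4, and no other call count moved by over 1.5 times with the fixed block, apart from that in saline given above. The planned filter removed no gene of 12009; a mean CPM of 10 or more, chosen after seeing the data, kept 10126 genes. Each treatment had 2 input libraries, and the lowest count of any of the 55 genes in a library was 20.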

Other observations

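Intracellular effectors of guidance receptors, the GTPase regulators, kinases and cytoskeletal proteins through which they act, were measured for 58 of 58 genes listed, and 21 were higher and 15 lower in TRAP than in input, near the shares of 31.1% and 29% of all genes, with a median log2 fold change of −0.09 (edgeR, FDR under 0.1). The smallest p-values in the direction of a rise were those of *Dpysl2*, the collapsin response mediator that relays Sema3a (687 to 1017 CPM in TRAP and 230.2 to 269 CPM in input, log2 fold change 1.81, FDR = 1.02e-07), the Ras exchange factor *Sos1* (68.4 to 104 CPM in TRAP and 24.6 to 36.2 CPM in input, log2 fold change 1.44, FDR = 1.34e-06), the kinase *Pak3* (99.5 to 184 CPM in TRAP and 44.4 to 63.1 CPM in input, log2 fold change 1.48, FDR = 1.39e-06) and the kinase *Rock2* (98 to 139 CPM in TRAP and 42.1 to 54.8 CPM in input, log2 fold change 1.28, FDR = 1.43e-06). In the direction of a fall they were *Evl*, an actin regulator (48 to 74.7 CPM in TRAP and 172 to 199 CPM in input, log2 fold change −1.53, FDR = 5.27e-07), the cofilin kinase *Limk1* (33.7 to 62.2 CPM in TRAP and 92 to 175 CPM in input, log2 fold change −1.75, FDR = 1.02e-06), the growth cone protein *Gap43* (303 to 528 CPM in TRAP and 727 to 841 CPM in input, log2 fold change −0.86, FDR = 8.64e-05) and the kinase *Fyn* (40.7 to 79.8 CPM in TRAP and 101 to 109.7 CPM in input, log2 fold change −0.77, FDR = 3.75e-04). TRAP and input did not overlap in any of these 8 genes. DSP-4 against saline in TRAP called 0 of the 58.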
